A study of Mus musculus with 8 samples.

Results

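Listed transcripts of 4 genes of the presynaptic terminal, Synj1, Unc13b, Erc2 and Nrxn2, were described in hippocampal RNA of 4 control and 4 Jade2-knockout libraries. The members are the transcripts that the authors' deposited table names with one of these 4 symbols, together with any unnamed transcript model of the same loci. This gave 7 transcripts of 4 loci, out of 1679 transcripts of 1404 loci, and 0 unnamed models. Synj1 has 3 of the 7, Nrxn2 has 2, and Unc13b and Erc2 have 1 each.

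The control mice were wild type and the others carried a Jade2 knockout. Both groups were of the C57BL/6 strain and 8 weeks old, and hippocampal tissue was taken, so neurons, glia and vessels contribute RNA. The sources used here do not give the knockout allele, the sex of the mice or whether each library came from a separate animal. Spread between libraries may therefore be partly technical.

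The deposited table is itself a selection. Its transcripts were selected on the knockout-against-control contrast: in the authors' deposited table the largest unadjusted p is 0.0498 and the smallest log2 fold change, in absolute size, is 1.00. The values that chose the 7 transcripts are thus the values described here, so the differences of the 7 between the groups are given as descriptions without a test. Abundances carry no named unit and are taken as FPKM (fragments scaled by transcript length and library size), which allows levels to be compared between transcripts of different length. No counts were used, so read depth is unknown. Median abundance over the listed transcripts was between 0.773 and 0.900 FPKM in the 8 libraries. In a tissue sample, fewer cells of a type and less RNA per cell cannot be told apart. The annotated Jade2 transcript ENSMUST00000109091 was listed at 0 in all 4 knockout libraries and between 1.41 and 5.05 FPKM in the controls. The merged Jade2 model MERGE.3721.8 stood between 1.79 and 11.8 FPKM in the controls and at most at 0.00225 FPKM in the knockouts. At 0 in every control were MERGE.3721.1, which reached 3.59 to 12.3 FPKM in the knockouts, MERGE.3721.3 (2.14 to 8.03 FPKM) and MERGE.3721.4 (0.501 to 3.17 FPKM). The 5 listed Jade2 transcripts summed to between 4.45 and 16.0 FPKM in the controls and between 8.07 and 19.5 FPKM in the knockouts, with overlap between the groups.

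Neurotransmitter is released when a synaptic vesicle fuses with the membrane at the active zone, a protein-dense patch opposite the postsynaptic receptors. Erc2 encodes the scaffold ELKS2 (also CAST), and Unc13b encodes Munc13-2, which primes docked vesicles for fusion. Nrxn2 encodes neurexin-2, an adhesion molecule of the presynaptic membrane that binds neuroligins across the cleft. Synj1 encodes synaptojanin 1, a phosphoinositide phosphatase that helps strip clathrin from vesicles retrieved by endocytosis. All 4 genes are transcribed as several isoforms.

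Synj1 showed a redistribution among its 3 listed isoforms. The long models, ENSMUST00000118390 and ENSMUST00000170853, had lower means in the knockout, and the short model of the 3′ end, ENSMUST00000154276, had a higher mean. In the knockout libraries the short model made up 93.0% ± 0.956 of the listed Synj1 sum, against 41.3% ± 17.7 in the controls (SD, n = 4 per group). The 3 models summed to 32.5 ± 1.96 FPKM in control libraries and 40.3 ± 12.3 FPKM in knockout libraries (SD, n = 4 per group), with overlap between the groups.

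The Synj1 locus lies on chromosome 16, minus strand, of mm10. GENCODE M21 annotates 12 Synj1 transcripts, of which 3 were listed, and the other annotated isoforms were not analysed here. ENSMUST00000118390 (90938240 to 91011113 in the deposited table, with 33 exons and 3970 coding bases in M21) and ENSMUST00000170853 (90936101 to 91011095, 33 exons, 3927 coding bases) share nearly all of their sequence in GENCODE M21. There they differ only at the 5′ end, where ENSMUST00000118390 has 18 coding bases of its own and ENSMUST00000170853 has 120 noncoding bases of its own. M21 extends the 3′ end of ENSMUST00000118390 to position 90936101, beyond the end in the deposited table, and marks its 5′ end as incomplete. ENSMUST00000154276 (90936106 to 90950419, 8 exons) is 3501 bases long with 566 coding bases, and its annotated 5′ end is incomplete as well. With M21 ends all of its 3501 exonic bases also lie in both long models. With the ends of the deposited table, 2134 of them, at the 3′ end, lie outside ENSMUST00000118390 and are shared, among the listed models, with ENSMUST00000170853 alone. Apart from its ends, the 1 feature it does not share is a splice junction that joins 2 exons across 2645 bases and skips a coding exon of 48 bases (16 codons, 90948066 to 90948113). That exon is present in 3 of the 12 annotated transcripts. The following lines show the exon of the long models in capitals with 24 bases on either side, and then the skipping junction of the short model, with the bases after the junction in capitals.
Synj1 exon of ENSMUST00000118390: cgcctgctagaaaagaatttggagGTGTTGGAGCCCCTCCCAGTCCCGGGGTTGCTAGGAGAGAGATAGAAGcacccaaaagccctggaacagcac
Synj1 junction of ENSMUST00000154276: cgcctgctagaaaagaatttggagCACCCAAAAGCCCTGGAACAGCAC
Fragments from exons that the models share can be assigned to more than 1 of them, and the sources used here do not say how they were divided or which exons ENSMUST00000118390 had in the authors' annotation.

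**Figure D1:**
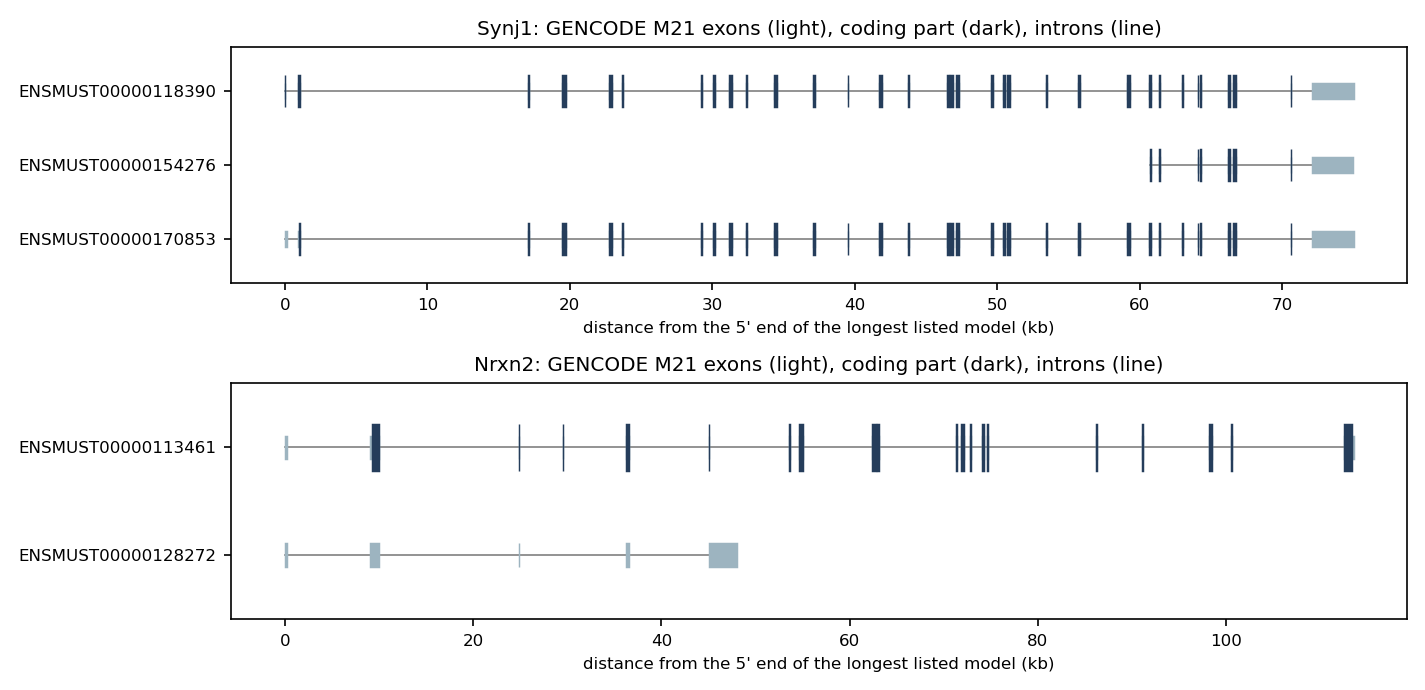
Exon structure of the listed Synj1 models (top) and Nrxn2 models (bottom) in GENCODE M21. Distance in kb runs from the outermost 5′ end among the listed models of each locus, which for Nrxn2 is that of ENSMUST00000128272. Light boxes are exons, dark boxes their coding part and lines are introns. With these ends the 3501 exonic bases of Synj1 ENSMUST00000154276 lie within the 3′ part of both long models, and Nrxn2 ENSMUST00000128272 ends inside the locus with no coding part.

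ENSMUST00000118390 stood at 11.2, 9.89, 12.5 and 16.5 FPKM in control replicates 1 to 4 and at 0.779, 1.11, 1.46 and 1.65 FPKM in knockout replicates 1 to 4. Every knockout library lay below every control library. The mean was 12.5 ± 2.84 FPKM in the control and 1.25 ± 0.386 FPKM in the knockout (SD, n = 4 per group), a ratio of 10.01, and the difference on the log2(FPKM + 0.5) scale was -2.90 (SE 0.225). By the adjusted p of the authors' deposited table it was the only one of the 7 below 0.05, at 0.0137. Over all listed transcripts, 15 of 1679 (0.893%) lie below 0.05, and 6 of 1679 (0.357%) do so with a lower knockout value. By unadjusted p in the authors' deposited table it ranked 11 in the list.

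ENSMUST00000154276 stood at 15.3, 5.07, 18.5 and 14.9 FPKM in control replicates 1 to 4 and at 25.2, 52.2, 35.2 and 37.03 FPKM in knockout replicates 1 to 4. The knockout libraries all lay above the controls. Its means were 13.4 ± 5.82 and 37.4 ± 11.1 FPKM (SD, n = 4 per group), with a log2 difference of 1.53 (SE 0.453). In the knockout it was the most abundant of the 7 transcripts in each of the 4 libraries.

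ENSMUST00000170853 stood at 3.44, 17.2, 2.62 and 3.01 FPKM in control replicates 1 to 4 and at 1.19, 3.48, 0.696 and 1.07 FPKM in knockout replicates 1 to 4. The groups overlapped, because knockout replicate 2 lay above 3 of the controls. The log2 difference was -1.48 (SE 0.698), and without control replicate 2 it was -0.897. Of the 7 transcripts this one lay nearest to the limit of the list in p, with an unadjusted p of 0.0462 in the authors' deposited table.

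Control replicate 2 divided the Synj1 sum differently from the other controls. There ENSMUST00000170853 held 53.5% of the sum and ENSMUST00000154276 held 15.8%, while in control replicates 1, 3 and 4 the first held between 7.80% and 11.5% and the second between 43.3% and 55.1%. The sum itself, 32.2 FPKM, was within the range of the other controls (29.9 to 34.3 FPKM). ENSMUST00000118390 held 30.7% of the sum in control replicate 2 and between 37.1% and 47.9% in the others. Taking the long models together, they summed to 14.6, 27.1, 15.1 and 19.5 FPKM in control replicates 1 to 4 and to 1.97, 4.59, 2.16 and 2.72 FPKM in knockout replicates 1 to 4. The controls and the knockouts did not overlap.

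The knockout libraries were alike in their Synj1 division. ENSMUST00000154276 held between 91.9% and 94.2% of the sum, ENSMUST00000118390 between 1.95% and 4.15%, and ENSMUST00000170853 between 1.87% and 6.13%. The mean share of ENSMUST00000118390 was 38.3% ± 7.14 in the control and 3.22% ± 1.02 in the knockout (SD, n = 4 per group), a difference of -35.1 percentage points (SE 3.60). For ENSMUST00000154276 the difference in share was 51.7 percentage points (SE 8.88). The sum of the 3 models ranged from 27.2 to 56.8 FPKM in the knockout, a wider range than in the control, and the highest value was in knockout replicate 2. On the log2 scale the ratio of mean sums, knockout over control, was 0.308, and 0.096 without that library.

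The direction of the difference in the Synj1 sum depended on how model length was treated. A sum of FPKM weights a short and a long model alike. With each FPKM multiplied by the length of its model in kb, which is proportional to fragments at a given library size, the sum was 148 ± 46.9 in the knockout and 153 ± 23.6 in the control with model ends as in the deposited table. With M21 lengths it was 151 ± 47.0 and 180 ± 22.5 (SD, n = 4 per group). In both forms the groups overlapped and the knockout mean lay below the control mean, while the mean of the plain FPKM sum lay above it. The difference in share of ENSMUST00000154276 with length weighting was 56.1 percentage points.

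Nrxn2, on chromosome 19, plus strand, was the other locus with isoforms listed in both directions. Loci of this kind number 138 of the 1404 (9.83%), and 138 of the 214 with more than 1 listed transcript (64.5%). ENSMUST00000113461 (6418765 to 6532278, 20 exons, 4920 coding bases) is a protein-coding model with a higher mean in the knockout. ENSMUST00000128272 (6418738 to 6466750, 5 exons) is annotated as a retained-intron transcript without a coding sequence and had a lower mean in the knockout. Its last exon runs for 2927 bases, from 6463824 to 6466750, into what is intron in ENSMUST00000113461. In their 5′ parts these models share 1526 exonic bases, which is 27.7% of the coding model and 34.3% of the retained-intron model. They also differ by an exon of 30 coding bases (10 codons, 6448255 to 6448284) that the coding model includes and the retained-intron model skips, and that 7 of the 18 annotated Nrxn2 transcripts contain. The exon is shown in capitals with 24 bases on either side, followed by the skipping junction with the bases after it in capitals.
Nrxn2 exon of ENSMUST00000113461: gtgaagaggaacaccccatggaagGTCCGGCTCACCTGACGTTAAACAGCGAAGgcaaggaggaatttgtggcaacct
Nrxn2 junction of ENSMUST00000128272: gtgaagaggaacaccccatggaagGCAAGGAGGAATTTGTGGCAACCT

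Nrxn2 ENSMUST00000113461 stood at 3.55 FPKM in control replicate 1 and was listed at 0 in control replicates 2, 3 and 4. In knockout replicates 1 to 4 it stood at 1.38, 1.98, 5.08 and 2.75 FPKM. One control library thus lay within the knockout range and the others were at 0, where a value can also be a failed estimate. The log2 difference was 1.85 (SE 0.825).

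Nrxn2 ENSMUST00000128272 stood at 0.241, 0.124, 0.537 and 1.12 FPKM in control replicates 1 to 4 and at 0.423, 0.0405, 0.0339 and 0.0303 FPKM in knockout replicates 1 to 4. Knockout replicate 1 lay among the controls and the other knockouts lay below all of them. The log2 difference was -0.62 (SE 0.362), and without control replicate 4 it was -0.353.

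The coding model held 93.6% of the listed Nrxn2 sum in control replicate 1 and 0% in the other controls. In the knockout libraries it held 76.6%, 98.0%, 99.3% and 98.9%. Control replicate 1 therefore resembled the knockout libraries at this locus. Without control replicate 1, the ratio of mean sums (knockout over control) was 2.30 on the log2 scale, against 1.07 with all libraries, and without knockout replicate 3 it was 0.662. Without control replicate 2 it was 0.691. The listed sum was 3.79, 0.124, 0.537 and 1.12 FPKM in control replicates 1 to 4 and between 1.81 and 5.11 FPKM in the knockouts.

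**Figure D2:**
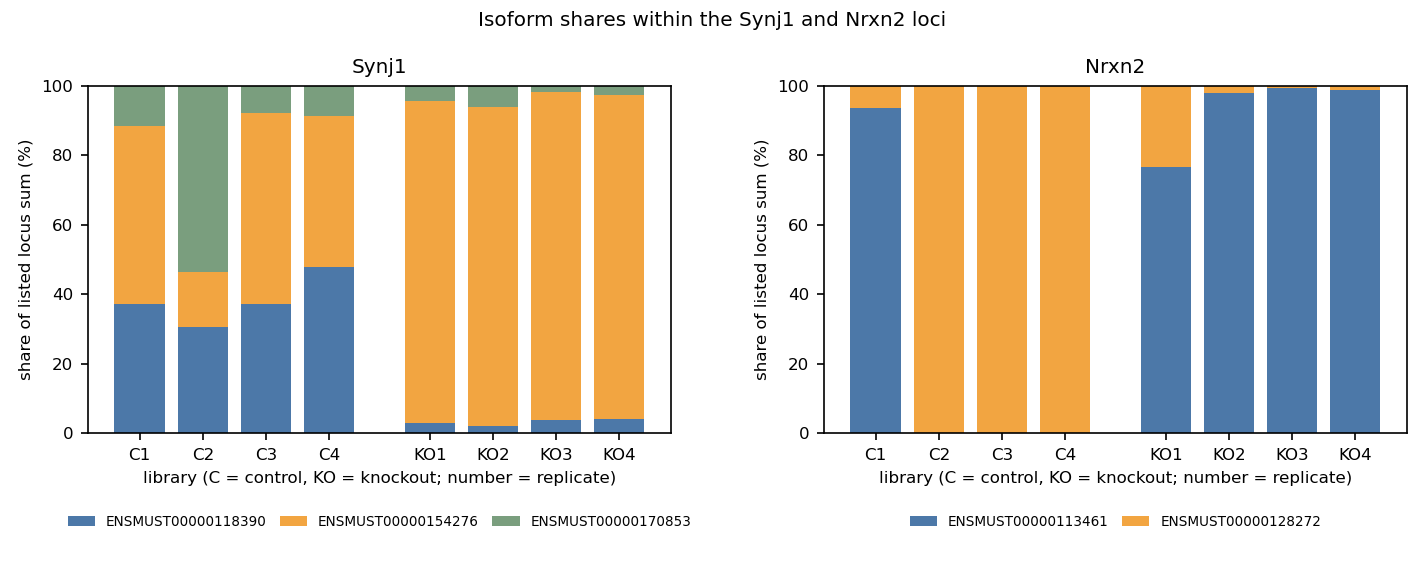
Share of each listed isoform in the listed sum of its locus (vertical axis, percent) for Synj1 (left) and Nrxn2 (right) in each control (C) and knockout (KO) library. In Synj1 the orange ENSMUST00000154276 fills between 91.9% and 94.2% of each knockout bar, and in Nrxn2 the bar of control replicate 1 is mostly ENSMUST00000113461, as are the knockout bars.

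Unc13b is known to give rise to a brain-enriched and a widely expressed form of Munc13-2 that differ at the N terminus. Its listed isoform, ENSMUST00000207708 (chromosome 4, plus strand, 43209498 to 43263733, 33 exons, 5946 coding bases), had a lower mean in the knockout. It starts inside the locus, and 3 of its exons occur in no other of the 16 annotated Unc13b transcripts. The longest of them, 2514 bases from 43215452 to 43217965, holds 2263 coding bases, including the start codon. The first 120 coding bases of this isoform, 43215703 to 43215822, are shown because they separate it from the other Unc13b models, with the start codon in capitals.
Unc13b ENSMUST00000207708: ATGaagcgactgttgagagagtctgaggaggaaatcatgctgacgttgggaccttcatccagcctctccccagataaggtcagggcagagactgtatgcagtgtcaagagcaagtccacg

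This Unc13b isoform stood at 0.616, 1.86, 1.76 and 1.10 FPKM in control replicates 1 to 4 and at 0.527, 0.648, 0.576 and 0.505 FPKM in knockout replicates 1 to 4. The knockout values were close to each other, and control replicate 1 lay within their range. The means were 1.33 ± 0.587 FPKM in the control and 0.564 ± 0.0631 FPKM in the knockout (SD, n = 4 per group), with a log2 difference of -0.73 (SE 0.256). In the authors' deposited table its log2 fold change was -1.18, the nearest of the 7 to the limit of the list in size.

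Erc2 ENSMUST00000210135 (chromosome 14, plus strand, 27622428 to 28478535, 20 exons, 2931 coding bases) also had a lower mean in the knockout. It is 1 of 14 annotated Erc2 transcripts, and the only one with a coding exon of 36 bases (12 codons) at 28029434 to 28029469. That exon is shown in capitals with 24 bases on either side, since it is the coding sequence that sets this isoform apart.
Erc2 exon of ENSMUST00000210135: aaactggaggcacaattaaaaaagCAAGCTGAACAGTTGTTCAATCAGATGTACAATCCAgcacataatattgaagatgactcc
The isoform stood at 0.164, 0.160, 1.09 and 0.627 FPKM in control replicates 1 to 4. In the knockout it was listed at 0 in replicates 1 and 2, at 0.317 FPKM in replicate 3 and at 0.0282 FPKM in replicate 4. Knockout replicate 3 lay above control replicates 1 and 2, so the groups overlapped. All 8 values are low, and the log2 difference was -0.72 (SE 0.355), or -0.464 without control replicate 3.

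**Figure D3:**
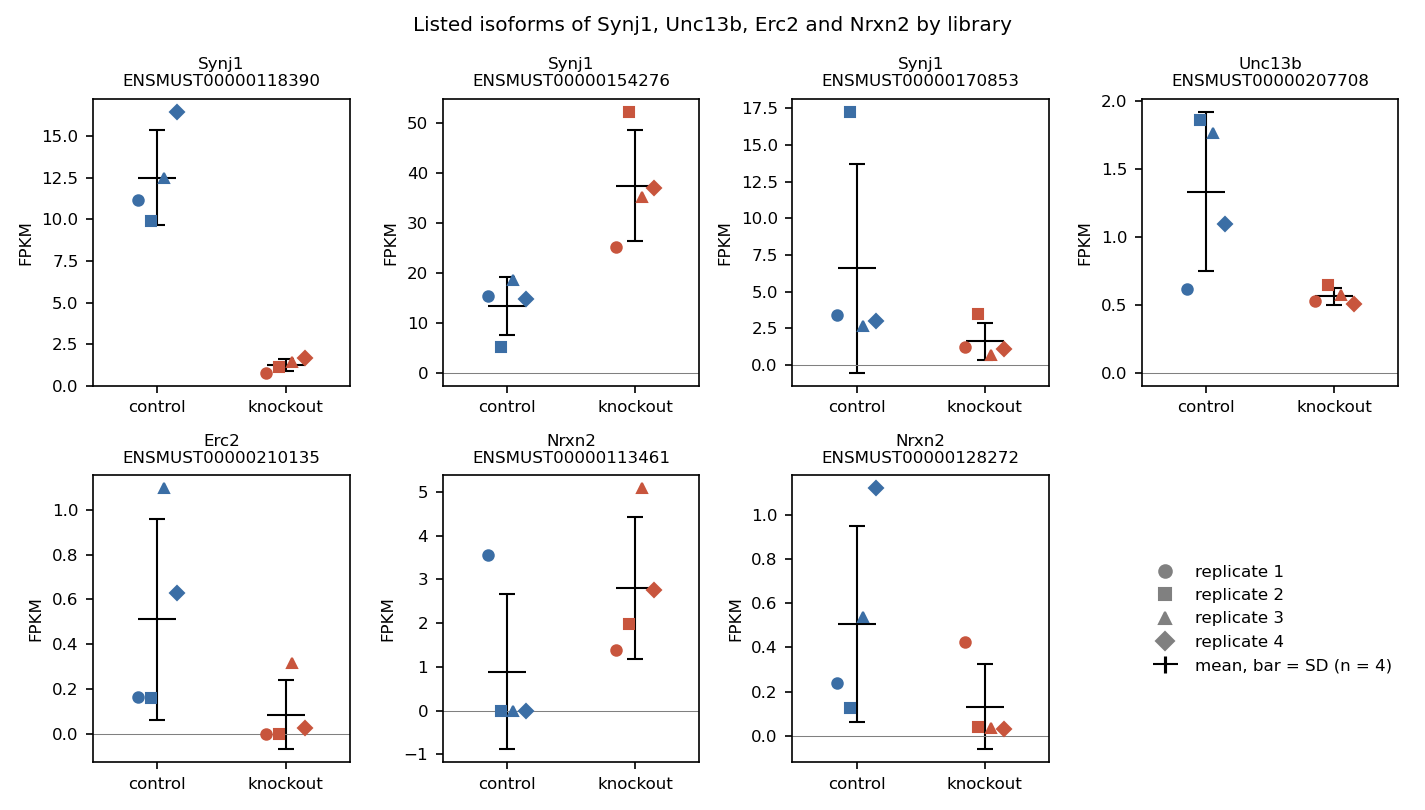
Abundance in FPKM (vertical axes, linear, scaled per panel) of the 7 listed isoforms in control (blue) and knockout (red) libraries. Symbols mark the replicate and black bars the mean ± SD (n = 4). Only Synj1 ENSMUST00000118390 and ENSMUST00000154276 have groups that do not overlap.

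Among the 7 isoforms, 5 had lower and 2 had higher values in the knockout. In 2 of the 7 the groups did not overlap, 1 lower and 1 higher. Over all listed transcripts this was the case for 606 of 1679 (36.1%), with 276 lower (16.4%) and 330 higher (19.7%). Averaged over all 8 libraries, 4 of the 7 reached 1 FPKM, the 3 Synj1 isoforms and Nrxn2 ENSMUST00000113461, which did so through the knockout libraries (mean 2.80 FPKM, against 0.887 FPKM in the control). In limma, fitted over the 849 listed transcripts that did so and adjusted for 104721 tests (the number that the authors' p-values imply), 0 transcripts passed an adjusted p of 0.05 (0%). The p-values were ranked among these 849 only, which can raise an adjusted p but not lower it. The count of 0 is therefore partly set by the adjustment. At an unadjusted p under 0.05 there were 599 (70.6%), a share set largely by how the list was made.

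Transcripts of other presynaptic genes were read from 6 lists covering active zone scaffolds, the fusion machinery, vesicle proteins, vesicle recycling, neurexins and their partners, and presynaptic calcium channels. Of 151 genes, 21 had a listed transcript, and the 30 listed transcripts divided into 10 higher and 20 lower in knockout libraries. In all, 33.3% were higher, against 48.5% of all listed transcripts, and the median log2 fold change in the authors' deposited table was -1.84, against -1.04 over the whole list. No listed value is smaller than 1.00 in absolute size, so the whole-list median lies at the edge of that gap. The difference in medians thus largely restates the split in direction. Leaving out the 7 isoforms above, 8 transcripts were higher and 15 lower. By the adjusted p of the authors' deposited table none of these 23 was below 0.05. Groups did not overlap in 7 of the 23, 1 higher and 6 lower, and the 6 include 3 models of 1 gene, Snap91. Over all listed transcripts the groups did not overlap in 606 of 1679 (36.1%), with 330 higher and 276 lower.

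Vesicle recycling had the most listed transcripts, 13 from 6 of 44 genes, of which 4 were higher and 9 lower. These counts include the 3 Synj1 isoforms described above. The clathrin assembly protein AP180 is encoded by Snap91, and its 3 merged models all had lower means in the knockout. They were named by position, through overlap with an annotated gene, as were the models of Ppfia4, Lin7a, Lrrtm4, Ptprd, Ptprs and Cacna1b below. Summed, the Snap91 models stood at 3.64, 15.7, 38.3 and 17.8 FPKM in control replicates 1 to 4 and between 0.102 and 0.292 FPKM in the knockouts. The groups were apart in each of the 3 models, while the controls themselves spread widely. The authors' deposited table gives the Snap91 model MERGE.26666.1 an adjusted p of 0.856 and the other models of Snap91 0.888.

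Itsn1, which encodes the endocytic scaffold intersectin 1, had 3 listed transcripts, all with lower means in the knockout. Their sum was 6.63 ± 4.64 FPKM in the control and 1.65 ± 0.336 FPKM in the knockout (SD, n = 4 per group), and control replicate 4, at 1.64 FPKM, lay within the knockout range. Epn1 ENSMUST00000098845, of the endocytic adaptor epsin 1, averaged 3.23 ± 2.49 FPKM in the control and 0.747 ± 1.03 FPKM in the knockout (SD, n = 4 per group). The 2 listed transcripts of Dnm2, which encodes the membrane-scission GTPase dynamin 2, had higher means in the knockout. Summed, they were at 0.812 ± 1.11 FPKM in the control and 2.45 ± 0.954 FPKM in the knockout (SD, n = 4 per group). Ap2b1 ENSMUST00000132178, of a subunit of the clathrin adaptor AP-2, stood at 0.486 ± 0.595 FPKM in control libraries and 1.34 ± 0.773 FPKM in knockout libraries. Groups overlapped for the Itsn1, Epn1, Dnm2 and Ap2b1 transcripts.

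Among neurexins and partners, 10 transcripts of 8 of 29 genes were listed, 4 higher and 6 lower, with the 2 Nrxn2 isoforms included. Lin7b ENSMUST00000210865, from the gene of a PDZ scaffold protein, stood at 0.386, 0.522, 0.741 and 1.42 FPKM in control replicates 1 to 4 and at most at 0.0357 FPKM in the knockouts. Its groups did not overlap, and its adjusted p was 0.134 in the authors' deposited table. Both listed transcripts of Nlgn1, which encodes the neurexin ligand neuroligin 1, had higher means in the knockout and were listed at 0 in control replicates 2 and 3. Nlgn1 ENSMUST00000075054 averaged 0.749 ± 0.993 FPKM in the control and 2.66 ± 2.42 FPKM in the knockout, and the Nlgn1 model MERGE.15179.7 stood at 0.529 ± 0.619 FPKM in control libraries and 0.942 ± 0.189 FPKM in knockout libraries (SD, n = 4 per group).

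The Ptprs model MERGE.11243.4, of a presynaptic receptor phosphatase, stood at 13.7, 52.7, 43.0 and 14.6 FPKM in control replicates 1 to 4 and between 8.69 and 14.1 FPKM in the knockouts. Its relative Ptprd (MERGE.17147.7) averaged 0.826 ± 0.784 FPKM in the control and 0.434 ± 0.867 FPKM in the knockout, where it was listed at 0 in replicates 2, 3 and 4 and stood at 1.73 FPKM, above every control, in replicate 1. The Lrrtm4 model MERGE.20909.17, of a postsynaptic leucine-rich repeat protein, averaged 1.15 ± 0.940 FPKM in the control and 0.0180 ± 0.0155 FPKM in the knockout. Flrt3 ENSMUST00000056760 averaged 1.94 ± 0.858 and 0.600 ± 0.594 FPKM. The Lin7a model MERGE.2992.5 averaged 0.850 ± 1.48 and 2.08 ± 2.30 FPKM, so it differed in direction from Lin7b (SD, n = 4 per group for each). Groups overlapped for each of these 5 transcripts.

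The release machinery itself contributed few transcripts. Active zone scaffolds had 3 listed transcripts of 16 genes, the Unc13b and Erc2 isoforms and the Ppfia4 model MERGE.1168.10, of a liprin-alpha scaffold. This Ppfia4 model averaged 0.426 ± 0.164 FPKM in the control and 0.983 ± 0.140 FPKM in the knockout (SD, n = 4 per group), and its groups did not overlap. The fusion machinery had 2 of 34 genes, both lower in the knockout. Snapin ENSMUST00000185005, of a SNARE-associated protein, averaged 0.761 ± 0.502 and 0.133 ± 0.204 FPKM without overlap. Napb ENSMUST00000136513, of the SNARE-disassembly adaptor beta-SNAP, was listed at 0 in knockout replicates 1 and 3 and at 3.30 and 2.32 FPKM in knockout replicates 2 and 4, against 2.38 ± 0.250 FPKM in the control. None of the 18 vesicle protein genes had a listed transcript.

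Presynaptic calcium channels had 1 transcript of each direction. Cacna2d3 ENSMUST00000225985, of an auxiliary subunit, averaged 0.545 ± 0.0563 FPKM in the control and 0.233 ± 0.0892 FPKM in the knockout (SD, n = 4 per group), without overlap. The Cacna1b model MERGE.13184.1, of the N-type channel pore, stood at 20.0, 0.0522, 16.8 and 0.00421 FPKM in control replicates 1 to 4 and between 16.6 and 18.2 FPKM in the knockouts. Here 2 controls lay within or above the knockout range and the other controls were near 0.

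**Figure D4:**
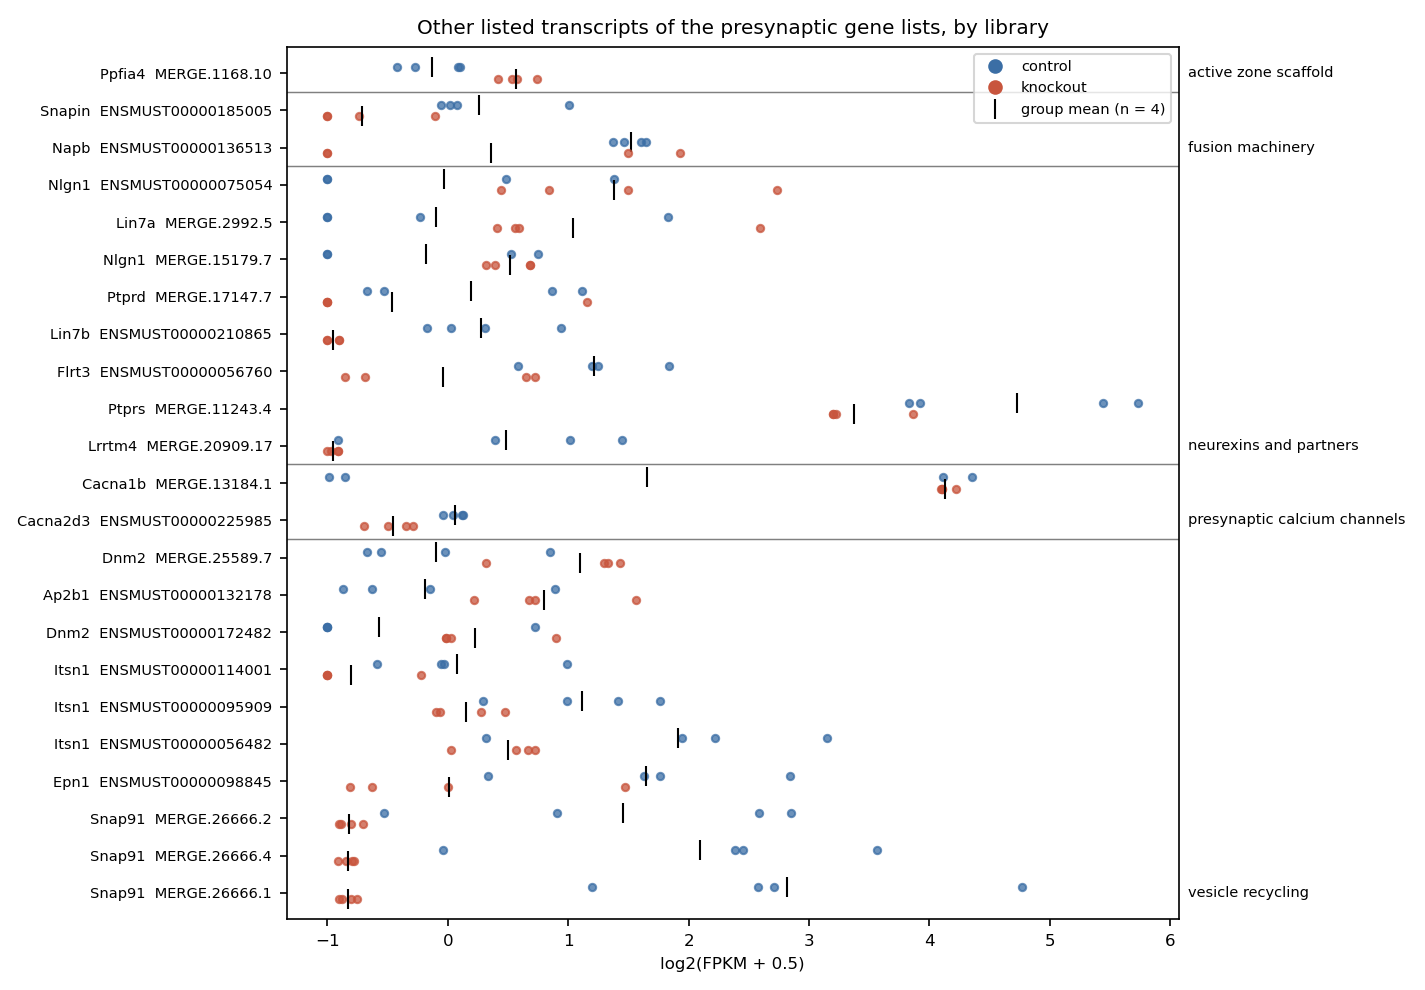
Values of the 23 other listed transcripts from the presynaptic gene lists, as log2(FPKM + 0.5) on the horizontal axis, in control (blue) and knockout (red) libraries, with group means as black ticks. The 3 Snap91 models have controls above all knockouts, while for the Cacna1b, Nlgn1 and Lin7a transcripts some controls lie below all knockouts and others within or above the knockout range.

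Markers of cell types were also listed in both directions. Of 36 marker genes 10 had a listed transcript, with 4 transcripts higher and 7 lower, and markers outside the list were not analysed here, so the tissue label could not be checked against its full marker set. The values are of listed transcripts, selected on this same contrast, and are not levels of whole genes. Other isoforms of the marker genes were not analysed here. The Rbfox3, Prox1 and Grik4 models, and those of Agt and Foxj1 below, were named by position. Neuronal markers had 2 of 6 genes listed, and the sum of their listed transcripts ranged from 2.05 to 48.3 FPKM in the controls and from 0.0173 to 1.39 FPKM in the knockouts. In the controls most of this was the Rbfox3 model MERGE.5068.1, which stood at 1.38 FPKM in control replicate 2 and between 36.1 and 47.7 FPKM in the other controls. In knockout replicates 1 to 4 this Rbfox3 model stood at 1.32, 0.0444, 0.00878 and 0.0173 FPKM. Map2 made up most of the sum in knockout replicates 2 and 3. The Map2 transcript ENSMUST00000145419 stood between 0.546 and 0.670 FPKM in the controls and between 0 and 0.531 FPKM in the knockouts. Hippocampal pyramidal and granule markers had 2 of 6 (Prox1 and Grik4), which summed to 14.5 to 26.1 FPKM in the controls and 1.14 to 13.6 FPKM in the knockouts. Taken singly, the Prox1 model and the Grik4 model each had overlapping groups. The microglial list had 1 of 5 (Csf1r), at 1.19 to 21.3 and 0.0140 to 1.57 FPKM. The oligodendrocyte list had 1 of 5 (Mag), at 2.53 to 2.97 and 0.619 to 2.42 FPKM.

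Astrocyte markers had 1 of 5 genes listed (Agt), at 0.0276 to 2.30 FPKM in the controls and 2.41 to 9.29 FPKM in the knockouts. Endothelial and mural markers had 2 of 5 (Acta2 and Tagln), which summed to 1.48 to 4.51 FPKM in the controls and 6.61 to 9.27 FPKM in the knockouts. Choroid plexus and ependymal markers had 1 of 4, Foxj1, with 1 model in each direction and 1 of them, MERGE.5016.3, at 0 in all controls. The part of cell composition in the isoform differences was not tested.

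Each isoform was compared with listed transcripts of other loci averaging 1 FPKM or more, by Pearson correlation of log2(FPKM + 0.5) over the 8 libraries, and up to 3 of the most alike are named. These values describe likeness only, since all listed transcripts share the group difference that chose them and the highest of about 846 to 849 candidates will be high. For Synj1 ENSMUST00000118390 they were Jade2 ENSMUST00000109091 (r = 0.963), Tmcc2 ENSMUST00000045473 (0.959) and the Jade2 model MERGE.3721.8 (0.952). With the group means removed the values were between 0.370 and 0.442. For Synj1 ENSMUST00000154276 they were transcripts of Ccdc141 (0.959), Syne1 (0.940) and Kptn (0.934), and with group means removed the values were still between 0.797 and 0.916. For Synj1 ENSMUST00000170853 they were transcripts of F730043M19Rik (0.958), Lrpap1 (0.918) and Cnot7 (0.900).

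For the Unc13b isoform those named are a transcript of C1qtnf5 (0.976) and an unnamed model, MERGE.16753.1 (0.958). For the Erc2 isoform they were transcripts of Hs6st3 (0.930), Btbd10 (0.927) and Cacna1d (0.901). Nrxn2 ENSMUST00000113461 was most like transcripts of Cntrob (0.972), Wdr1 (0.959) and Tmem9b (0.954), and Nrxn2 ENSMUST00000128272 most like those of Gramd1b (0.967), Fmnl1 (0.881) and Tsr3 (0.879).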

How the data were processed

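Total RNA of hippocampus was sequenced after Trizol extraction and a NEBNext Ultra library preparation, per the labels' protocols. The submitters' processing notes name HISAT2, Cuffdiff and mm10, without versions. The deposited abundances name no unit and are treated here as FPKM. Log2 fold changes and p-values were deposited by the authors, by a test that the sources used here do not name. Isoform structures and sequences are from GENCODE M21 (GRCm38). Of 541 merged models, 103 took the symbol of their locus, 339 that of a same-strand gene overlapping by 50% or more of each, and 99 have no name. Without stated strand use, overlapping genes are uncertain.

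Groups and replicate numbers came from the labels. Means, SDs, shares of the listed locus sum and differences of log2(FPKM + 0.5) were computed in Python 3.11.15 (numpy 2.4.6, pandas 2.3.3, matplotlib 3.10.9). Such differences understate the change of low transcripts. A two-sided limma model (version 3.58.1, R 4.3.3, variance trend) was run on listed transcripts averaging 1 FPKM or more. Its Benjamini-Hochberg adjustment took 104721 as the number of tests but ranked p only among the listed transcripts fitted, so adjusted p can be too large. A trial on simulated data adjusted over the number of listed transcripts and left out their selection, so it does not check the reported setting. The members, gene lists and tests were chosen with earlier results of these data known. Every listed transcript of the members and every gene of the lists with a listed transcript is named, together with up to 3 of the most alike by correlation, of which 1 is not reported here. Length-weighted sums and shares were added after seeing the data.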

Additional observations from a re-analysis of the deposited data

Results flagged for a closer look

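In 4 of 18 groups of 4 values examined, a single library stood apart, its distance to the nearest of the others taking up most of the range (Dixon's criterion at 95%). Chance alone gives about 0.9 such groups. These were Synj1 ENSMUST00000170853 at 17.2 FPKM in control replicate 2, Erc2 ENSMUST00000210135 at 0.317 FPKM in knockout replicate 3, Nrxn2 ENSMUST00000113461 at 3.55 FPKM in control replicate 1 and Nrxn2 ENSMUST00000128272 at 0.423 FPKM in knockout replicate 1. Each comes from a different library. For independent, normally distributed values about 0.9 such groups would be expected. FPKM cannot fall below 0, and the locus sums examined reuse the isoform values. The 4 groups can therefore not be read as an excess over that number.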

How the results depend on the processing

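Of 147 recomputed values of the isoform levels, shares and sums and the list counts, 137 moved by less than the spread between libraries (counts by less than 1.5 times), 8 moved further and 2 turned in direction. For levels and shares, leaving out 1 of 4 libraries cannot move a difference by as much as that spread. Keeping only named rows changed nothing, as the loci had 0 unnamed models. The tally was thus partly fixed in advance and does not measure robustness. With a pseudocount of 0.1 the log2 difference was -3.25 for Synj1 ENSMUST00000118390, -1.70 for Erc2, 3.40 for Nrxn2 ENSMUST00000113461 and -1.38 for Nrxn2 ENSMUST00000128272, and with a pseudocount of 1 it was -2.58 for Synj1 ENSMUST00000118390. The log2 ratio of the Synj1 sum, 0.308 as reported and 0.096 without knockout replicate 2, was -0.252 with M21 length weighting and -0.045 with the ends of the deposited table. From summed group values the share of Nrxn2 ENSMUST00000113461 differed by 31.8 percentage points in place of 69.8.

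Leaving out each library in turn, the log2 difference ranged from -3.01 to -2.76 for Synj1 ENSMUST00000118390, 1.14 to 1.73 for ENSMUST00000154276, -1.84 to -0.897 for ENSMUST00000170853, -0.943 to -0.583 for Unc13b, -0.888 to -0.464 for Erc2, 1.56 to 2.60 for Nrxn2 ENSMUST00000113461 and -0.812 to -0.353 for Nrxn2 ENSMUST00000128272. The difference in share ranged from -37.6 to -31.8, 43.2 to 56.3 and -20.8 to -5.59 percentage points for the Synj1 isoforms in that order, the last without control replicate 2, and from 62.0 to 93.2 for Nrxn2 ENSMUST00000113461. The log2 ratio of sums ranged from 0.096 to 0.456 for Synj1 and from 0.662 to 2.30 for Nrxn2. With a mean of at least 1 FPKM the presynaptic lists held 6 higher and 11 lower transcripts.

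With no filter, limma called 7 of 1679 listed transcripts, and 0 of these were isoforms of the 4 genes described here. It called between 0 and 4 of 849 when a library was left out (4 without control replicate 2, 1 without control replicate 1 or 4). Again 0 of them were isoforms of the 4 genes. With a replicate block limma called 0, with 519 at an unadjusted p under 0.05. Same-numbered libraries showed correlations of deviations between -0.033 and 0.041, so the numbers were not treated as pairs. Depth is unknown, and the low Erc2 and Nrxn2 values cannot be given a counting error.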
